A study of Mus musculus with 12 samples.

Results

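The genes described here encode the enzymes that make, use and recycle glutathione, and the enzymes that remove superoxide and peroxides, in skeletal muscle of mice on diets with different phosphorus contents. Members were chosen by gene symbol, with earlier results of these data known. They were the numbered Gsta, Gstm, Gstp, Gstt, Gsto, Gstk, Gpx, Prdx, Sod, Ggt and Txnrd genes of the array table, together with Gclc, Gclm, Gss, Gsr, Cat, Nqo1, Hmox1, Txn1 and Txn2. This gave 52 genes of 22206 transcripts, each with a single row in the table. Male C57BL/6J mice, 6.5 months old, had received feed with 0.3% phosphorus (P0.3 group, the adequate level) or 1.2% phosphorus (P1.2 group, the high level) for 6 weeks. Phosphorus was added as potassium phosphate. The P0.3 feed also held potassium bicarbonate, which the P1.2 feed lacked, and somewhat more cornstarch, so these components and phosphorus cannot be told apart. No engineered allele is named for either group. The M. gastrocnemius, a mixed calf muscle, of 6 mice in each group was hybridized to Clariom S arrays, with 1 array per mouse. The mice were housed in pairs, and the sources used here do not give the cage of each mouse.

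Glutathione is a tripeptide that keeps cell proteins reduced. It is made by glutamate-cysteine ligase and glutathione synthetase, spent by the glutathione peroxidases and transferases, and returned to its reduced form by glutathione reductase at the expense of NADPH. Peroxiredoxins and the thioredoxin system form a parallel route for peroxides, while superoxide dismutases and catalase act directly on superoxide and hydrogen peroxide. The transcription factor NRF2 (gene Nfe2l2) switches on many of these genes through the antioxidant response element in their promoters, and in muscle the oxidative slow fibres, rich in mitochondria, carry a large oxidant load.

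The core letters of this element, TGACNNNGC, where N is any base, were searched in these genes. The search covered both strands of the 300-base RefSeq promoter windows (250 bases before to 50 after the start, build GRCm38.p6). Of the 52 members, 44 had a promoter entry, and 8 of these (18.2%) held the letters: Gclm, Ggt1, Gsta3, Gstm5, Gstm7, Prdx1, Sod1 and Txnrd1. The letters occurred in 12.4% of all 32851 promoters and in 14.0% of the 27025 genes with a promoter. The share of the members is close to this, so the count is not a result about them. Nqo1 had a promoter entry without the letters, and Gclc and Hmox1 were among the members without an entry. The 3 stretches below come from Gclm, Prdx1 and Txnrd1, which stand for glutathione synthesis, the peroxiredoxins and the thioredoxin system, and whose signals are given further down.
Gclm: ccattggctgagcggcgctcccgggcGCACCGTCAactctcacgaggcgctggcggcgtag
Prdx1: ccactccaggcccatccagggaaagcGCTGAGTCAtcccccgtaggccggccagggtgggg
Txnrd1: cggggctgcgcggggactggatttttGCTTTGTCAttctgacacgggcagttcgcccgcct
Capitals mark the match, which lies on the opposite strand in all 3 sequences. On the plus strand of GRCm38.p6 the stretches are chr3:122245397-122245457 for Gclm, chr4:116685440-116685500 for Prdx1 and chr10:82859088-82859148 for Txnrd1. The match begins 134 bases before the start in Gclm, 133 bases before it in Prdx1 and 92 bases before it in Txnrd1. A match of letters is a description of the sequence, and binding was not measured.

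The values are log2 signals, so that a difference of 0.38 corresponds to the study's fold change threshold of 1.3. The 12 arrays showed a muscle pattern, with a mean of the 8 fast fibre markers of 18.50 to 18.81 and of the 12 slow fibre markers of 8.32 to 12.67. The slow fibre mean was alike in both diets (10.34 in P0.3 and 10.31 in P1.2, two-sided exact permutation test with all 924 splits, p = 0.963), but differed between mice of the same diet. It lay between 11.46 and 12.67 on 4 arrays, namely P0.3 replicates 9 and 11 and P1.2 replicates 2 and 12, and between 8.32 and 10.21 on the other 8. The paper's qPCR on more mice per group found the slow fibre marker Myh7 significantly higher in P1.2. Means of the adipocyte, erythrocyte, macrophage, neutrophil, endothelial, fibroblast, Schwann, smooth muscle and satellite cell markers overlapped between the diets, and 6 of the 7 neutrophil markers were dim. So were 3 of 5 Schwann, 2 of 3 satellite cell, 3 of 8 macrophage, 2 of 8 adipocyte, 2 of 8 erythrocyte and 1 of 4 smooth muscle markers. At a fold change over 1.3 and an unadjusted limma p under 0.05, 1 of the 8 adipocyte markers was lower in P1.2. Of all transcripts, 1.36% were. A gene is called dim here where its mean signal was under 6.11. This is the 95% point of the signals of 1455 olfactory and vomeronasal receptor transcripts, taken as a guide to background signal. Of the 52 members, 12 were dim: Ggt1, Ggt6, Gpx2, Gpx5, Gsta2, Gsta3, Gsto2, Gstt2, Gstt3, Gstt4, Sod3 and Txnrd3.

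The first comparison asked whether the high-phosphorus diet changed the muscle transcripts of these enzymes. The study's thresholds, a fold change over 1.3 and an unadjusted p under 0.05, were applied to limma in place of the methods' t-test. No member passed both (0 of 52), where 2.28% of all transcripts did (507 of 22206), 0.919% as higher and 1.36% as lower. The methods' t-test at the same thresholds called 0 members and 364 transcripts, 142 higher and 222 lower. In limma the count was also 0 at an unadjusted p under 0.05 alone, which 3.25% of all transcripts reached. No member had a fold change over 1.3 with the test left aside, against 4.06% of all. With Benjamini-Hochberg adjustment, limma called 0 of the 22206 transcripts. The differences ran from -0.29 for Gsta2 to 0.37 for Gpx3 on the log2 scale, P1.2 minus P0.3. The arrays of both diets overlapped for every member, while 0.153% of all transcripts had groups without overlap. In whole muscle, fewer cells of a type and less RNA per cell cannot be told apart.

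The precision sets what these data could show. The median standard error of a member's log2 difference was 0.19, against 0.18 over all transcripts. The 95% interval lay within a 1.5-fold change in both directions for 31 of the 52 members and within a 2-fold change for 51. The exception was Prdx6, whose interval reached 1.04. A difference under 1.3-fold could not be called, because the thresholds exclude it. Larger differences could be missed as well with 6 arrays per group. Of the 901 transcripts with a fold change over 1.3, 507 also had an unadjusted limma p under 0.05.

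**Figure D1:**
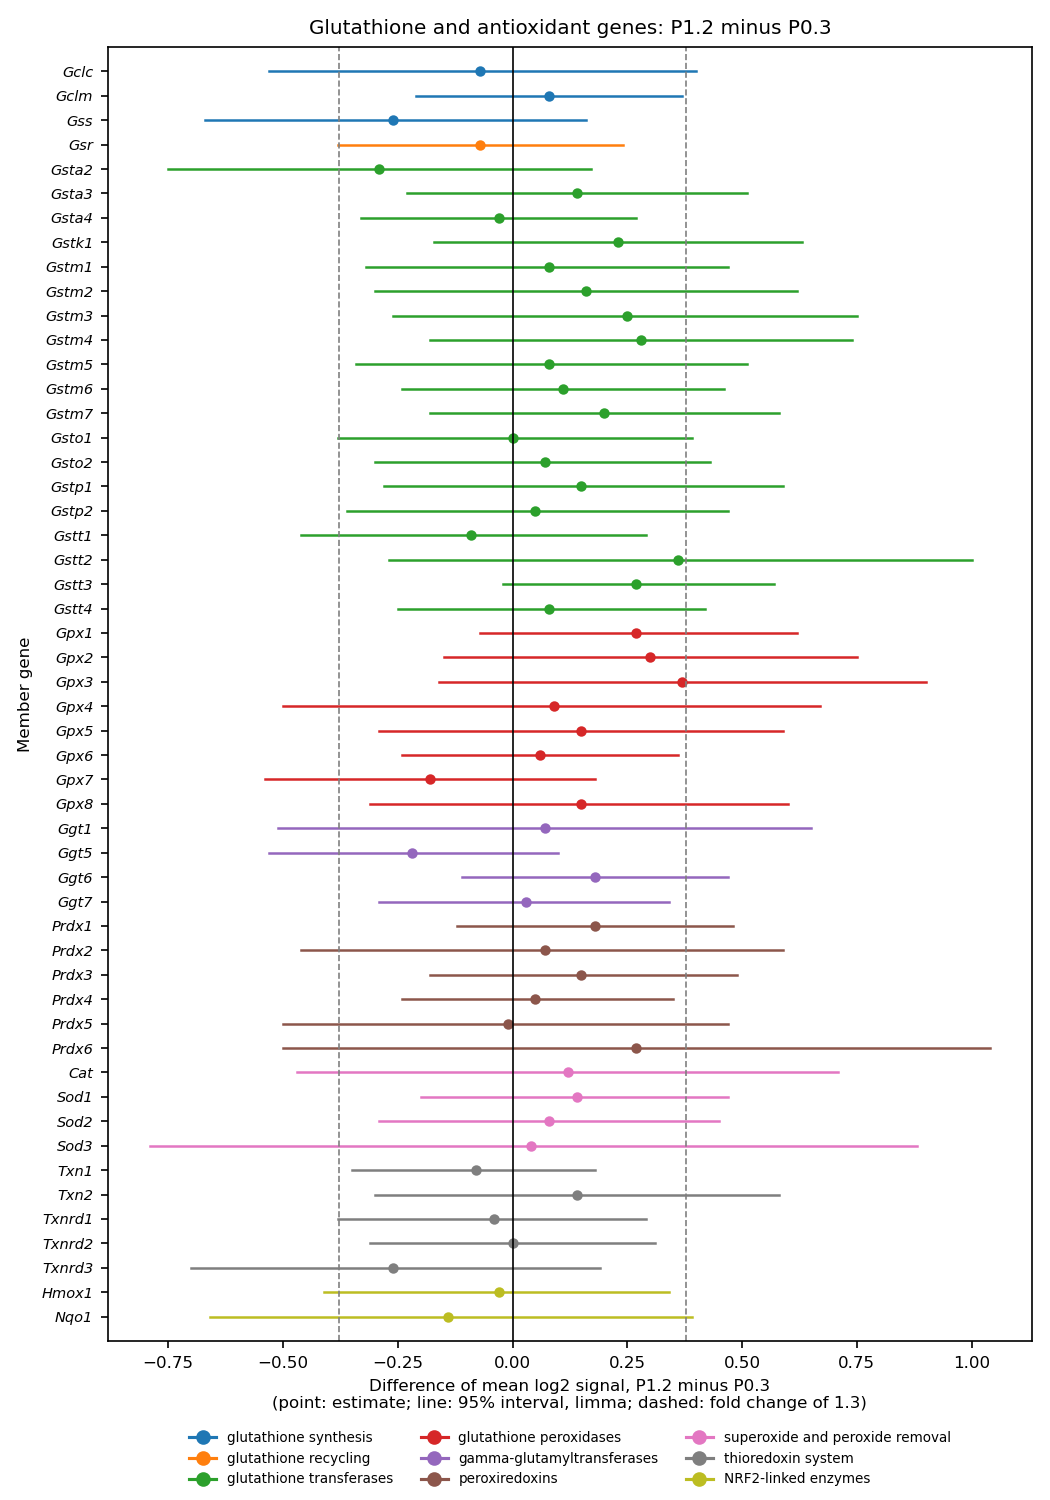
Differences of mean log2 signal between the P1.2 and the P0.3 group (x axis, log2 units) for the 52 member genes (y axis), coloured by role. Points are limma estimates with 95% intervals, and dashed lines mark a fold change of 1.3. All 52 points lie between -0.29 and 0.37, inside the dashed lines, and all intervals include 0.

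The means were higher in P1.2 for 37 members and lower for 15. This is 71.2% against 48.0% of all transcripts, and the median log2 difference was 0.08 against -0.01. Most members were brighter than the usual transcript, and they were not set against transcripts of like signal. With only transcripts above the median signal fitted, 26 of 38 members had a higher mean. The share of all transcripts with a higher mean is not given for this fit or for the alternatives below. At both thresholds, which is a different measure, 98 transcripts were called higher and 46 lower in that fit. The numbers were 204 and 303 when all were fitted. The members share the same 12 arrays and were not tested as a list. The number with a higher mean was 31 without P1.2 replicate 2 and 31 without P0.3 replicate 5, and 36 after quantile normalization. P1.2 replicate 2 had the highest signal of the 12 arrays for 10 members (19.2%), which it had for 6.48% of all transcripts. P0.3 replicate 5 had the lowest signal for 9 members (17.3%, against 9.13% of all transcripts), and so did P1.2 replicate 4 (17.3%, against 9.27%).

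Glutathione synthesis rests on 3 genes, none of which passed the test, and recycling on Gsr. Gss encodes glutathione synthetase, which completes the tripeptide. Its signals were 5.86, 6.27, 6.60, 6.40, 6.56 and 5.98 in P0.3 and 6.49, 6.08, 6.44, 5.53, 6.02 and 5.56 in P1.2. The lowest 2 arrays belonged to P1.2, the highest 2 to P0.3, and the rest were mixed, giving a difference of -0.26 (SE 0.20, limma, unadjusted p = 0.206, adjusted p = 1.0). Gclc encodes the catalytic subunit of glutamate-cysteine ligase, the rate-limiting enzyme of the route, and Gclm its modifier subunit. The mean signal of Gclc was 9.11 ± 0.41 (SD, n = 6) in P0.3 and 9.04 ± 0.44 (SD, n = 6) in P1.2. Gclm was at 10.68 ± 0.17 (SD, n = 6) and 10.76 ± 0.21 (SD, n = 6), a difference of 0.08 with a 95% interval from -0.21 to 0.37. Gsr, the glutathione reductase, had 10.82 ± 0.22 (SD, n = 6) in P0.3 and 10.75 ± 0.22 (SD, n = 6) in P1.2, with an interval from -0.38 to 0.24.

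The 19 glutathione transferases, which couple glutathione to lipid peroxidation products and foreign compounds, had 16 means that were higher in P1.2 and 3 that were lower, with 0 called. Gstt3, a theta class transferase on chromosome 10, had the smallest p of all members and was dim. Its signals were 4.94, 4.97, 4.88, 4.67, 4.87 and 4.63 in P0.3 and 5.12, 5.19, 5.32, 4.85, 5.32 and 4.78 in P1.2. The P1.2 arrays reached higher, with 4 of them above all P0.3 arrays and replicates 8 and 12 within the P0.3 range. The difference was 0.27 (SE 0.14, limma, unadjusted p = 0.0679, adjusted p = 1.0), a 1.21-fold change below the study's threshold. The two-sided exact permutation test gave p = 0.0411 before adjustment for the 52 members, and Gstt3 was the only member under 0.05 in that test. Its unadjusted p was also under 0.05 in the methods' t-test, with the fold change below the threshold.

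Other transferases with means apart were less even. Gstt2, also of the theta class and dim, differed by 0.36 (SE 0.30), and its P0.3 arrays ran from 4.20 to 6.01 and its P1.2 arrays from 4.85 to 6.19. The alpha class gene Gsta2, dim as well, was at 5.75, 5.60, 4.33, 5.38, 5.17 and 5.17 in P0.3 and at 5.55, 5.09, 4.83, 4.70, 4.68 and 4.81 in P1.2. P0.3 replicate 5 held the lowest value of all 12 arrays, below every P1.2 array, although 5 of the 6 P1.2 arrays lay below the P0.3 mean. The difference of -0.29 (limma, unadjusted p = 0.203) became -0.47 without P0.3 replicate 5 (unadjusted p = 0.0203, adjusted p = 1.0), which passed both thresholds. Over all fits that left out an array, the difference ran from -0.47 to -0.19. Gsta2 was the only member called in any of these fits.

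The 7 mu class genes lie together on chromosome 3 and are similar in sequence, so probes of close copies can share signal. No member was marked as cross-hybridizing in the array table, but each was read from only 10 probes. All 7 means were higher in P1.2, from 0.08 for Gstm1 and Gstm5 to 0.28 for Gstm4, with 0 called. Gstm4 had signals of 9.87, 9.41, 9.57, 9.52, 8.88 and 9.39 in P0.3 and of 10.08, 9.66, 10.35, 9.23, 9.93 and 9.07 in P1.2. The highest 3 arrays belonged to P1.2, as did 2 of the lowest 3 (limma, unadjusted p = 0.214, adjusted p = 1.0). The pi class pair Gstp1 and Gstp2 on chromosome 19 are near-identical copies, and their differences were 0.15 (SE 0.21) and 0.05 (SE 0.20). Gstk1, the kappa class enzyme of mitochondria and peroxisomes, differed by 0.23 (SE 0.19), with 5 of 6 P1.2 arrays above the P0.3 mean. Gsto1 of the omega class had the same mean of 9.81 in both groups (95% interval from -0.38 to 0.39).

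**Figure D2:**
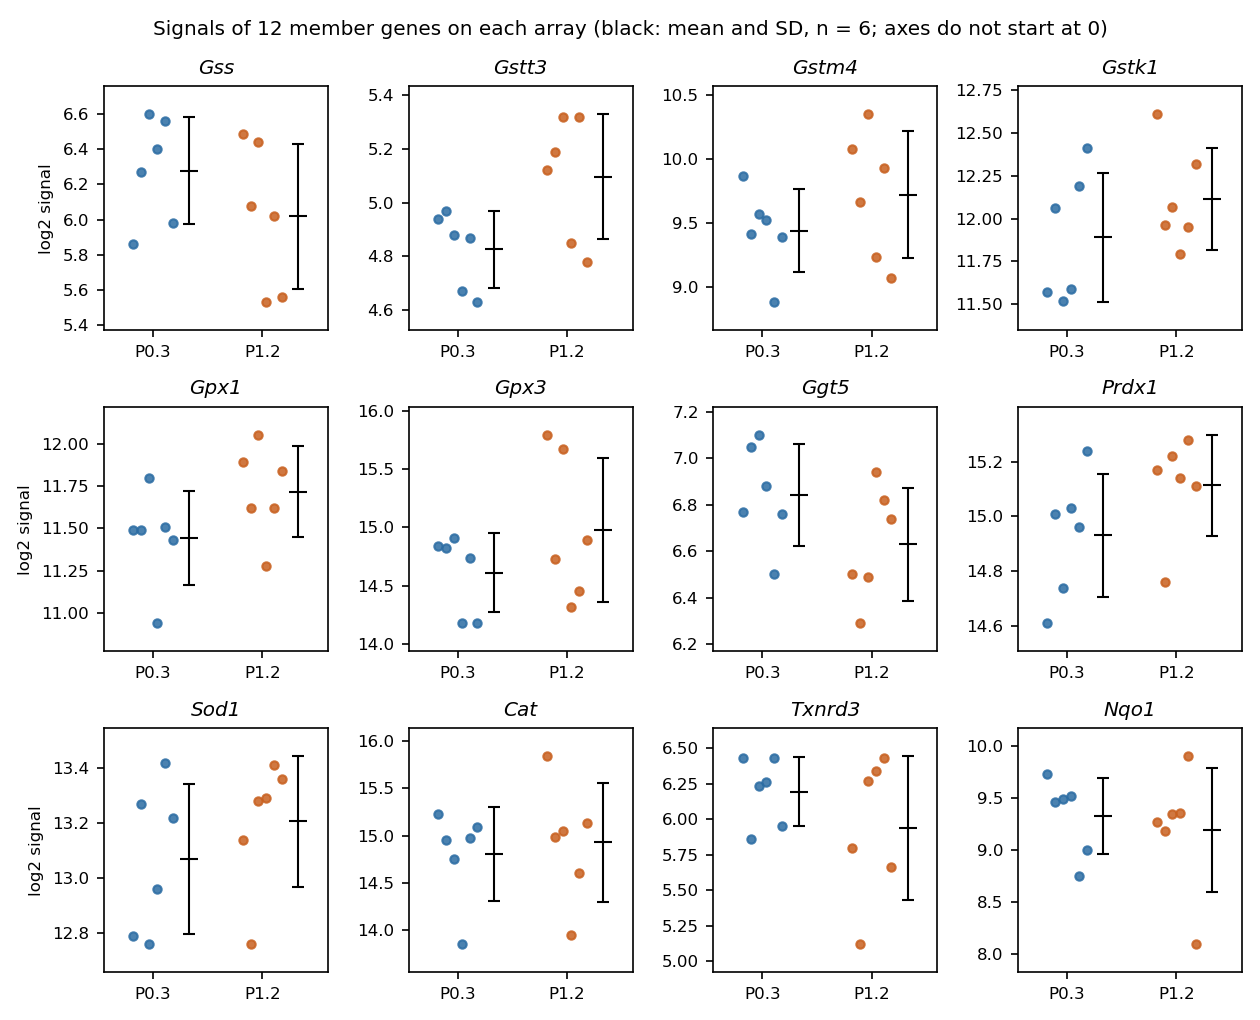
Log2 signals of 12 member genes (y axes, which do not start at 0) on each of the 6 P0.3 and 6 P1.2 arrays (points), with the group mean and SD in black. In all 12 panels the groups overlap, and Gstt3 shows 4 of 6 P1.2 arrays above all P0.3 arrays.

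Of the 8 glutathione peroxidases, which reduce hydrogen peroxide or lipid peroxides with glutathione or thioredoxin as donor, 7 had a higher mean in P1.2 and Gpx7 a lower one (-0.18, SE 0.17). None was called. Gpx1 encodes the selenium-dependent cytosolic and mitochondrial enzyme. Its signals were 11.49, 11.49, 11.80, 10.94, 11.51 and 11.43 in P0.3 and 11.89, 11.62, 12.05, 11.28, 11.62 and 11.84 in P1.2. In P1.2, 5 of 6 arrays lay above the P0.3 mean and 3 above every P0.3 array, while the lowest array of all was P0.3 replicate 7. The difference was 0.27 (SE 0.16, 95% interval from -0.07 to 0.62, limma, unadjusted p = 0.114, adjusted p = 1.0). Without P1.2 replicate 8 it was 0.36 (unadjusted p = 0.0413), still under the 1.3-fold threshold. Without P0.3 replicate 7 it was 0.17 (limma, unadjusted p = 0.284). These were the ends of the range over the fits that left out an array.

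Gpx3, the peroxidase that cells secrete and that circulates in plasma, had the largest difference among the 52 members at 0.37 (1.29-fold, SE 0.25, limma, unadjusted p = 0.159, adjusted p = 1.0). Its signals were 14.84, 14.82, 14.91, 14.18, 14.74 and 14.18 in P0.3 and 15.79, 14.73, 15.67, 14.32, 14.46 and 14.89 in P1.2. Replicates 2 and 6 of P1.2 stood above all other arrays, and the remaining 4 lay within the P0.3 range. P1.2 replicate 6 also had the highest adipocyte marker mean (7.36, against 5.63 to 6.89 on the other arrays). P1.2 replicate 2, with the highest Gpx3 signal, had an adipocyte mean of 6.78, and P0.3 replicate 9 had 6.89. The difference of Gpx3 with this mean as a covariate was 0.28 (limma, unadjusted p = 0.145). The part of adipocytes in the Gpx3 signal was not tested beyond this fit. Without P1.2 replicate 2 the difference of Gpx3 was 0.21. Gpx4, which reduces lipid peroxides in membranes, was at 12.30 ± 0.52 (SD, n = 6) and 12.38 ± 0.60 (SD, n = 6). Gpx2, a peroxidase best known from the gut and dim here, differed by 0.30 (SE 0.21).

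The 4 gamma-glutamyltransferase genes, whose best known products break down glutathione outside the cell, were not called either. Ggt5 was at 6.77, 7.05, 7.10, 6.88, 6.50 and 6.76 in P0.3 and at 6.50, 6.29, 6.49, 6.94, 6.82 and 6.74 in P1.2. The lowest 2 arrays were of P1.2 and 5 of its 6 arrays lay below the P0.3 mean, with a difference of -0.22 (SE 0.15, limma, unadjusted p = 0.171, adjusted p = 1.0). Ggt1, Ggt6 and Ggt7 differed by 0.07, 0.18 and 0.03, and Ggt1 and Ggt6 were dim.

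Among the 6 peroxiredoxins, 5 means were higher in P1.2 and that of Prdx5 differed by -0.01. Prdx1, a cytosolic peroxiredoxin whose promoter stretch is printed above, was at 14.61, 15.01, 14.74, 15.03, 14.96 and 15.24 in P0.3 and at 15.17, 14.76, 15.22, 15.14, 15.28 and 15.11 in P1.2. In P1.2 all arrays but replicate 4 lay close together near the top of the P0.3 range, and the difference was 0.18 (SE 0.14, limma, unadjusted p = 0.220, adjusted p = 1.0). Prdx3, the mitochondrial member, differed by 0.15 (SE 0.16) and Prdx4, the member of the secretory pathway, by 0.05 (SE 0.14). Prdx6, which also reduces phospholipid peroxides, differed by 0.27 with a wide standard error of 0.36.

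The 3 superoxide dismutases and catalase all had slightly higher means in P1.2, by 0.04 to 0.14, and none passed the test. Sod1, the cytosolic copper-zinc enzyme, was at 12.79, 13.27, 12.76, 12.96, 13.42 and 13.22 in P0.3 and at 13.14, 12.76, 13.28, 13.29, 13.41 and 13.36 in P1.2. Both groups spanned nearly the same range (difference 0.14, SE 0.16, limma, unadjusted p = 0.403, adjusted p = 1.0). The mitochondrial enzyme Sod2 was at 14.29 ± 0.36 (SD, n = 6) and 14.37 ± 0.24 (SD, n = 6). Cat, the peroxisomal catalase, was at 14.81 ± 0.49 (SD, n = 6) and 14.93 ± 0.63 (SD, n = 6), with replicate 7 of P0.3 (13.85) and replicate 8 of P1.2 (13.95) at the bottom and replicate 2 of P1.2 (15.84) at the top.

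In the thioredoxin system, which reduces the peroxiredoxins, 1 of 5 means was higher in P1.2 and 4 were lower or equal, with 0 called. Txn1, the cytosolic thioredoxin, had the smallest SD of all members (0.15) and differed by -0.08, with an interval from -0.35 to 0.18. The cytosolic reductase Txnrd1 had 11.95 ± 0.25 (SD, n = 6) in P0.3 and 11.91 ± 0.26 (SD, n = 6) in P1.2. Txnrd2, the mitochondrial reductase, had a mean of 9.26 in both groups. Txnrd3, a reductase best known from the testis and dim here, was at 6.43, 5.86, 6.23, 6.26, 6.43 and 5.95 in P0.3 and at 5.80, 5.12, 6.27, 6.34, 6.43 and 5.66 in P1.2. Replicates 2, 4 and 12 of P1.2 lay below all P0.3 arrays and the other 3 lay within their range (difference -0.26, SE 0.21, limma, unadjusted p = 0.237, adjusted p = 1.0).

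Nqo1 (a quinone reductase) and Hmox1 (heme oxygenase 1) are classical NRF2 targets. Nqo1 ran from 8.75 over a median of 9.47 to 9.73 in P0.3 and from 8.09 over a median of 9.31 to 9.90 in P1.2. The highest and the lowest array both belonged to P1.2 (difference -0.14, SE 0.25, limma, unadjusted p = 0.588, adjusted p = 1.0). Hmox1 had 8.31 ± 0.15 (SD, n = 6) in P0.3 and 8.28 ± 0.41 (SD, n = 6) in P1.2.

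Around the enzymes, 143 further genes were grouped in 7 lists: NRF2 regulators, other NRF2 targets, glutathione handling, thioredoxin partners, NADPH supply, oxidant producers, and selenoproteins with their synthesis. At both thresholds in limma, 2 of these genes were higher in P1.2, 1 was lower and 140 were neither. The 3 of 143 are close to the 2.28% called among all transcripts, so the count is not a result about these lists, and the 3 genes are given as values. No regulator of NRF2 was called (0 of 12). Nfe2l2 itself differed by -0.05 (SE 0.15) and Keap1, the adaptor that marks NRF2 for degradation, by -0.06 (SE 0.18). The counts were also 0 of 14 for NADPH supply, 0 of 20 for selenoproteins and 0 of 19 for oxidant producers.

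The 3 called genes were Chac1, Sesn1 and Osgin1. Chac1 encodes an enzyme that cleaves glutathione inside the cell and belongs to glutathione handling (1 of 34 higher, 0 lower). Its signals were 6.49, 6.17, 9.02, 4.93, 8.18 and 8.15 in P0.3 and 7.10, 8.19, 9.95, 10.25, 8.95 and 9.45 in P1.2. The 3 highest arrays belonged to P1.2 and the 3 lowest to P0.3, and the arrays between them were mixed. The difference was 1.83 (3.54-fold, SE 0.63, limma, unadjusted p = 0.0102, adjusted p = 1.0), and the exact permutation test gave p = 0.0476. The signals varied widely within the diets, with an SD of 1.54 in P0.3 and 1.18 in P1.2. By qPCR on more mice per group, the paper reported a smaller rise of Chac1 that was not significant.

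Sesn1 encodes a sestrin, a stress protein that has been tied to peroxiredoxin recycling, and stands among the thioredoxin partners (1 of 22 higher, 0 lower). It was at 9.02, 8.73, 8.50, 8.20, 8.78 and 8.81 in P0.3 and at 9.57, 8.73, 10.35, 9.34, 8.35 and 9.77 in P1.2. Replicates 2, 6, 8 and 12 of P1.2 lay above all P0.3 arrays, and replicates 4 and 10 lay within the P0.3 range. The difference was 0.67 (SE 0.27, limma, unadjusted p = 0.0239, adjusted p = 1.0). The exact permutation test gave p = 0.0584. In the methods' t-test the unadjusted p was 0.0596, so that Sesn1 did not meet the study's criteria in the study's own test. The unadjusted limma p was 0.0579 without P0.3 replicate 7, 0.0666 without P1.2 replicate 6 and 0.0535 without P1.2 replicate 12.

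Osgin1, an oxidative stress response gene and NRF2 target, was the lower gene (1 of the 22 other NRF2 targets). It was at 6.95, 6.66, 6.91, 6.90, 7.31 and 7.14 in P0.3 and at 6.40, 6.98, 6.30, 6.83, 6.39 and 6.08 in P1.2. The 4 lowest arrays all belonged to P1.2, while replicates 4 and 8 lay within the P0.3 range. The difference was -0.48 (SE 0.17, limma, unadjusted p = 0.0116, adjusted p = 1.0; exact permutation p = 0.0238). Txndc9, a thioredoxin domain protein, and Noxa1, an activator of NADPH oxidase and dim here, had unadjusted limma p of 0.0476 and 0.0358 (adjusted p = 1.0), with differences of 0.33 and 0.34 that stayed under the 1.3-fold threshold.

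The second comparison asked how the enzymes varied with the slow fibre mean of the muscle piece. On these arrays this mean differed between mice far more than between diets. The slope of each transcript on the slow fibre mean was fitted in limma together with diet, and the 12 slow fibre markers hold no member. At an adjusted p under 0.05, 3 members rose and 1 fell with the slow fibre mean (4 of 52), against 3.52% of all transcripts (782), of which 2.2% rose and 1.32% fell. The members that rose were Prdx2, Prdx6 and Sod3, and the member that fell was Nqo1. Slopes are given as log2 signal per unit of the slow fibre mean.

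Prdx2, a cytosolic peroxiredoxin that is very abundant in red blood cells, was at 12.84 and 12.85 on P0.3 replicates 9 and 11 and at 12.53 and 12.73 on P1.2 replicates 2 and 12. On the other 8 arrays it lay between 11.49 and 12.21, so that the 4 arrays rich in slow fibre transcripts did not overlap with them. The slope was 0.26 (SE 0.05, limma, adjusted p = 0.00513). It was called without any single array, with slopes from 0.24 to 0.29. Prdx6 was at 8.62 and 8.88 on the same P0.3 arrays and at 7.88 and 9.16 on the same P1.2 arrays. The other 8 arrays ran from 7.07 to 8.87, and P1.2 replicate 8 at 8.87 was the array that overlapped most. Its slope was 0.37 (SE 0.07, adjusted p = 0.00808), and without P1.2 replicate 12 it was 0.34 (adjusted p = 0.0592).

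Sod3, the extracellular superoxide dismutase, had the largest SD of the members (0.84) and a mean below the dim limit. It was at 7.12 and 6.35 on P0.3 replicates 9 and 11 and at 7.38 and 6.79 on P1.2 replicates 2 and 12. The other 8 arrays ran from 4.91 to 6.54 and overlapped with these only through P1.2 replicate 6. The slope was 0.38 (SE 0.09, adjusted p = 0.0221), with an adjusted p of 0.111 without P0.3 replicate 9 and of 0.0743 without P1.2 replicate 12. Nqo1 went the other way, with 8.75 on P0.3 replicate 9, 8.09 on P1.2 replicate 12 and 9.27 on P1.2 replicate 2, against 9.18 to 9.90 on the 8 arrays with less slow fibre signal. P0.3 replicate 11 lay below all of these 8 as well. Its slope was -0.23 (SE 0.06, adjusted p = 0.0287). The adjusted p of Nqo1 was 0.0517 without P0.3 replicate 1, 0.105 without P0.3 replicate 9, 0.0582 without P1.2 replicate 10 and 0.207 without P1.2 replicate 12.

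**Figure D3:**
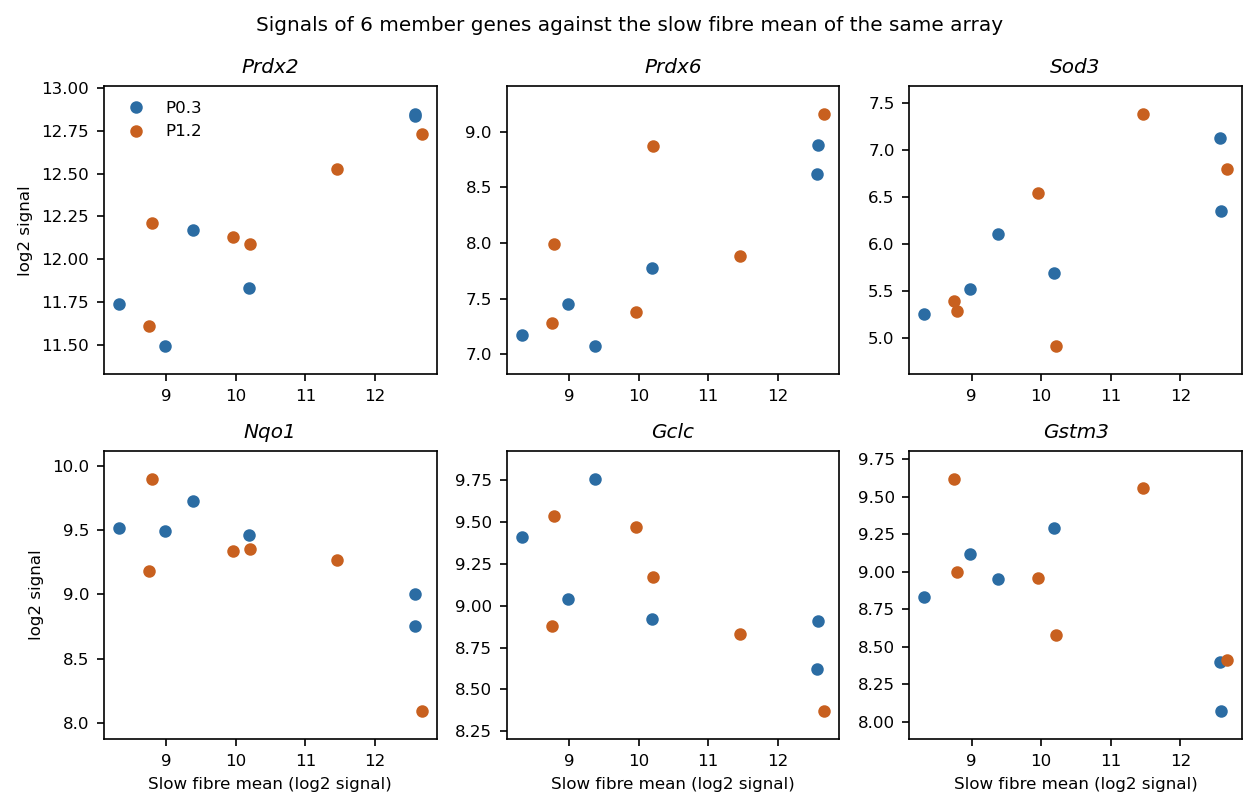
Log2 signals of 6 member genes (y axes, which do not start at 0) against the mean log2 signal of 12 slow fibre markers on the same array (x axes), for P0.3 (blue) and P1.2 (orange). The 4 arrays between 11.46 and 12.67 carry the highest Prdx2 values, and the 3 lowest Nqo1 values lie among them.

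The calls rest on the 4 arrays at the upper end. Within the 8 arrays under a slow fibre mean of 11, limma called 0 of the 52 members and 4 of the 22206 transcripts, and the slopes were 0.14 for Prdx2, 0.38 for Prdx6, 0.22 for Sod3 and -0.07 for Nqo1. That of Prdx6 was as large as over all 12 arrays, and the other 3 were smaller in size. Other cell type markers moved along. The mean of the 8 erythrocyte markers measured was 10.54 to 11.14 on the 4 arrays and 9.45 to 10.59 on the other 8. The endothelial mean was 9.80 to 10.18 on the 4 arrays and 9.09 to 9.90 on the others, and the fibroblast mean was 9.95 to 11.52 and 9.12 to 10.23. With any of these 3 means as a further term, 0 of 52 members were called. Of the 22206 transcripts, 55 were called with the erythrocyte mean, 61 with the endothelial mean and 185 with the fibroblast mean. Without a further term the number was 782. The 0 of 52 is therefore not a result about the members. With the erythrocyte mean the slopes were 0.29 for Prdx2, 0.40 for Prdx6, 0.37 for Sod3 and -0.16 for Nqo1. With the endothelial mean they were 0.22 for Prdx2, 0.07 for Prdx6, 0.68 for Sod3 and -0.23 for Nqo1. With the fibroblast mean they were 0.29, 0.43, 0.27 and -0.15 in the same order of genes. The part of these cells in the slopes was not tested beyond these fits.

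Just outside the threshold, the mitochondrial thioredoxin Txn2 (0.19, adjusted p = 0.0523), Gstk1 (0.17, adjusted p = 0.0525) and Prdx5 (0.20, adjusted p = 0.0584), a peroxiredoxin of mitochondria and peroxisomes, had positive slopes. Gclc had a negative slope (-0.18, adjusted p = 0.0962). Gsto1 (0.13) and Gpx8 (0.15), an enzyme of the endoplasmic reticulum, both had an adjusted p of 0.186 in limma. At an unadjusted p under 0.05, 17 members had a slope apart from 0, with 11 positive and 6 negative, and 16.0% of all transcripts reached this level. The 6 negative ones were Nqo1, Gclc, Gclm, Gstm1, Gstm2 and Gstm3.

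By role, all 4 genes of the superoxide dismutase and catalase group had positive slopes, from 0.09 for Sod1 to 0.38 for Sod3. The peroxiredoxins had 5 positive slopes of 6 with a median of 0.13, whereas the 3 genes of glutathione synthesis had negative slopes with a median of -0.09. The 19 transferases were spread on both sides, from -0.17 for Gstm3 to 0.17 for Gstk1, with 12 positive and 7 negative. Over all members, 33 slopes were positive (49.6% of all transcripts were) and the median slope was 0.03, against 0.00 over all transcripts. Whether the roles differed from each other was not tested.

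**Figure D4:**
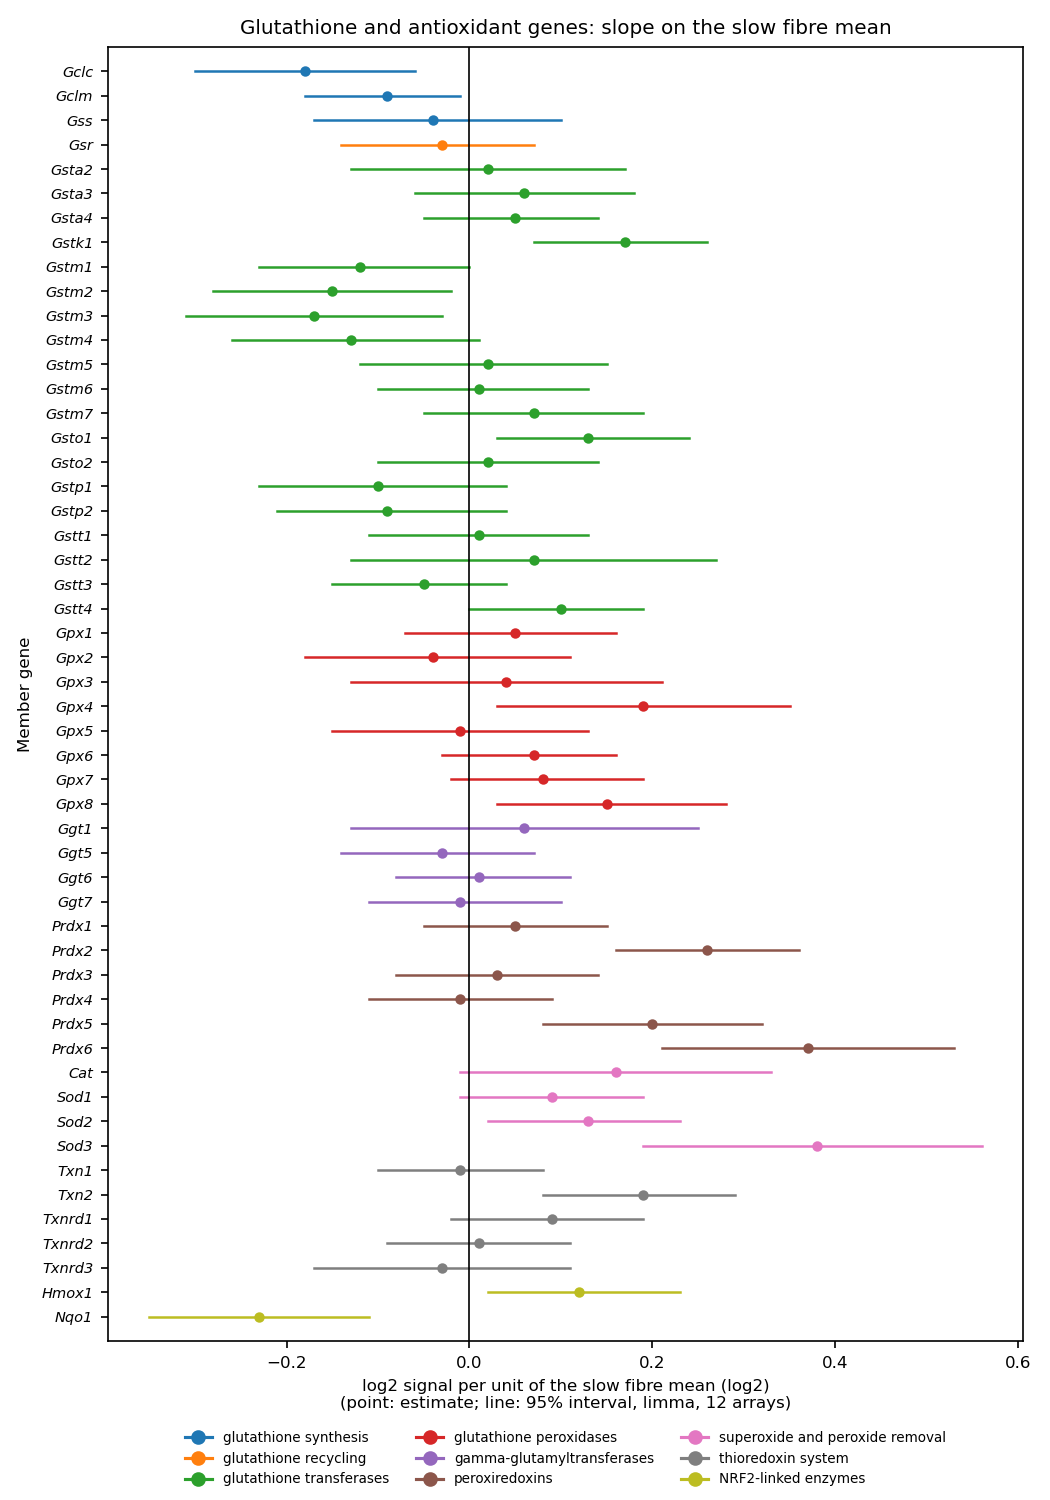
Slopes of log2 signal on the slow fibre mean (x axis, log2 signal per unit) for the 52 member genes (y axis), coloured by role, with 95% limma intervals from 12 arrays. The highest slope is that of Sod3 (0.38) and the lowest that of Nqo1 (-0.23).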

How the data were processed

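RNA of M. gastrocnemius from 6 P0.3 and 6 P1.2 mice was measured on Clariom S arrays, 1 array per mouse. The authors computed log2 signals with the GCCN-SST-RMA algorithm in Affymetrix Expression Console (version 1.4, also named in the submitters' processing notes). The deposited log2 signals of 22206 transcripts were used as they stand. The second deposited table holds the same signals rounded to 2 decimals and served as an alternative. Group means, fold changes and p-values that the authors placed in the table were not used. The genome build of the array table is not given in the sources used here, so no array coordinates are printed. No read count stands behind an array signal, so precision depends on the 6 arrays per group.

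All transcripts were fitted with limma (version 3.58.1, R version 4.3.3; lmFit, eBayes), with the difference taken as P1.2 minus P0.3. The p-values of all 22206 were adjusted together (Benjamini-Hochberg). Genes were called in limma at the study's thresholds, a fold change over 1.3 and an unadjusted p under 0.05. The study applied these to a t-test, which was run as an alternative. Single genes were also tested with a two-sided exact permutation test over 924 splits, whose smallest p is 0.00216. The slope on the mean of 12 slow fibre markers was fitted with diet and called at an adjusted p under 0.05. Correlation coefficients over the arrays are not given, because the arrays fell into separate ranges of that mean, and slopes within the lower range are given in their place. Steps were tested on simulated data with 200 changed transcripts.

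The members and lists were chosen with earlier results of these data known. Named genes were members with an unadjusted p under 0.05, the 10 largest differences, the smallest p of each role, the 10 smallest p for the slow fibre mean, the 5 largest SDs, and up to 3 genes per pathway list with p under 0.05. This gave 25 members and 5 pathway genes, and the other genes in the text were chosen after their values were seen. Tables and plots were made in Python 3.11.15 with pandas 2.3.3, matplotlib 3.10.9 and numpy 2.4.6. Alternatives were other tests, variance priors, array weights, normalizations, a filter at the median signal, marker means as covariates, and leaving out each array.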

Additional observations from a re-analysis of the deposited data

Results flagged for a closer look

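In 3 of the 104 groups of 6 arrays (52 members in 2 diets), a single array stood far from the other 5 by Dixon's criterion, which chance exceeds in about 1 of 20 groups. Gpx8, a peroxidase of the endoplasmic reticulum, was at 7.81 on P0.3 replicate 9 and at 6.93 to 7.10 on the other P0.3 arrays. Prdx1 was at 14.76 on P1.2 replicate 4, against 15.11 to 15.28 on the other P1.2 arrays. Cat was at 13.85 on P0.3 replicate 7, against 14.75 to 15.23 on the other P0.3 arrays.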

How the results depend on the processing

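Without a single array, the number of members called by diet was 0 to 1, the median difference of the members was 0.03 to 0.12, and the number of members called for the slow fibre mean was 1 (without P1.2 replicate 12) to 5. It was 2 without P0.3 replicate 9. Over all transcripts, 782 were called for the slow fibre mean with all arrays. The number was 383 without P1.2 replicate 12, 443 without P0.3 replicate 9 and 1051 without P0.3 replicate 7, which gave the 5 members. The low and high member counts thus went with low and high counts over all transcripts. The slow fibre count was 7 after quantile normalization, 0 with the fast fibre mean in place of the slow one, 0 without the 2 arrays farthest from the median (P1.2 replicate 12 and P0.3 replicate 11), 0 within the 8 arrays under a slow fibre mean of 11, and 0 with the erythrocyte, endothelial or fibroblast mean as a further term. The last 4 settings were chosen after the data were seen, as were the macrophage and endothelial covariates for diet. The cause was not tested. With the fast fibre mean, 0 of the 22206 transcripts were called, so the 0 members there are not a result about the enzymes. Without the 2 arrays farthest from the median, 188 transcripts were called, too few to read the 0 members as a result about them. After quantile normalization the number over all transcripts was also above 782. Small diet differences turned sign. Gsto1 was at -0.04 after quantile normalization and at -0.03, -0.02 and -0.01 with the adipocyte, erythrocyte and macrophage mean. Prdx5 was at 0.00 with array weights, 0.02 with arrays centred on their median and 0.00 with the endothelial mean. Sod3 was at -0.07, 0.00 and 0.00 with the adipocyte, erythrocyte and macrophage mean. With 1 array left out, the difference ran from -0.28 to 0.08 for Nqo1, -0.15 to 0.23 for Ggt1, -0.17 to 0.07 for Gclc, -0.11 to 0.11 for Gsto1, -0.07 to 0.20 for Prdx2, -0.18 to 0.11 for Prdx5, -0.07 to 0.32 for Cat and -0.22 to 0.27 for Sod3.

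Of all transcripts, 507 were called by diet in limma, 144 with only those above the median signal fitted, and 487 to 801 without a single array. The 507 split into 204 higher and 303 lower. The split was 98 and 46 with only transcripts above the median signal fitted. It was 240 and 213 after quantile normalization, and 287 and 203 with arrays centred on their median. Sesn1 had an unadjusted p of 0.0596 in the methods' t-test, on the same values and arrays. No member symbol had several rows, so the alternatives on rows per symbol were not run. No paired analysis was possible because the replicate numbers of the diets share none. Precision was limited by 6 arrays per group.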

Other observations

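Among the 143 pathway genes, several varied with the slow fibre mean at an adjusted p under 0.05 in limma, fitted with diet. In glutathione handling 3 of 34 rose and 1 fell, and in thioredoxin partners 2 of 22 rose and 1 fell. In NADPH supply 2 of 14 rose and 1 fell. Of the 12 NRF2 regulators 1 fell, and 1 rose of the 22 other NRF2 targets and 1 of the 19 oxidant producers. Of the 20 selenoprotein genes 0 were called, and of all transcripts 3.52%. Within the 8 arrays under a slow fibre mean of 11, 4 of the 22206 transcripts were called. The genes named here were chosen for their slopes, which are given as log2 signal per unit of the slow fibre mean. Idh2, the mitochondrial isocitrate dehydrogenase that supplies NADPH, had a slope of 1.17 (SE 0.08, adjusted p = 1.32e-07), and Nnt, the NADPH-forming transhydrogenase of the inner mitochondrial membrane, one of 0.42 (SE 0.05). C57BL/6J mice are known to carry a deletion in Nnt, and the probes were not placed relative to it. Me1, the cytosolic malic enzyme and likewise a source of NADPH, went the other way with -0.28 (SE 0.04). Mgst1, a microsomal glutathione transferase that the symbol rule for members does not take, had a slope of 0.48 (SE 0.05), and Gdap1, a glutathione transferase-like protein of the outer mitochondrial membrane, had -0.49 (SE 0.08). Cul3, the ubiquitin ligase scaffold that works with Keap1, had -0.27 (SE 0.07). The methionine sulfoxide reductases Msrb2 and Msrb3 had opposite slopes, 0.21 (SE 0.05, adjusted p = 0.0309) and -0.37 (SE 0.10, adjusted p = 0.0456). Also called, all with positive slopes, were Clic4 (0.43), Xdh (0.38), Anpep (0.33), Ephx1 (0.29) and Map3k5 (0.29).

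None of these genes was called by diet. The diet difference of Idh2 was 0.59 with a 95% interval from -1.37 to 2.56, the widest of those named here, and its 12 arrays spanned 5.29 log2 units.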
